A study of Homo sapiens with 6 samples.

Results

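The MYC and MAX network is a family of transcription factor genes, and 10 of its genes were followed among the 19727 genes of the deposited table: MYC, MYCN and MYCL, their partner MAX, the MAX-binding repressors MXD1, MXD3, MXD4, MXI1 and MNT, and the MAX-like gene MLX. They were found by gene symbol, and all 10 were in the table. The set was selected on the FPKM values of these genes in the same 6 libraries, with their group differences and their spread already known, so these are given as descriptions and not as tests.

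The proteins of this family bind DNA as pairs. MYC, MYCN and MYCL need MAX as a partner to bind the E-box, and such pairs mostly activate genes for ribosome production, metabolism and the cell cycle. The MXD proteins, MXI1 and MNT compete for the same partner and bring repressor complexes to the same kind of site, while MLX pairs mainly with the nutrient-responsive factors MLXIP and MLXIPL. MYC RNA and protein are short-lived, and MYC is often overexpressed in prostate cancer.

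DU145 is a cell line established from human prostate cancer. The study asked which genes change when the circular RNA circCSPP1 is overexpressed, a circular RNA described there as binding miR-520h. The 3 lentivirus-NC libraries came from DU145 cells carrying a control vector, and the 3 lentivirus-circCSPP1 libraries came from DU145 cells carrying a vector for circCSPP1. Both were puromycin-selected stable lines, and it is not stated whether the replicates were separate infections or cultures of 1 line, so the spread between libraries may be technical.

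Polyadenylated RNA was sequenced, and the values are FPKM, fragments per kilobase of transcript scaled to library size. Depth, read from the steps between low values, was 28900000 to 36600000 fragments per library, with overlapping groups. CSPP1, the host gene of the circular RNA, had 9.11 to 10.08 FPKM in lentivirus-NC and 14.47 to 22.76 FPKM in lentivirus-circCSPP1, a value that does not separate linear, circular and vector RNA. The epithelial markers EPCAM, CDH1, KRT8, KRT18 and KRT19 were expressed in all libraries, but their summed FPKM was 2271 to 2361 in lentivirus-NC and 1046 to 1278 in lentivirus-circCSPP1. KLK3, KLK2 and TMPRSS2, markers of luminal prostate cells, were below 1 FPKM in every library, and the summed leukocyte, endothelial, fibroblast and neural markers did not exceed 4.14 FPKM in any library. The lentivirus-circCSPP1 libraries stood apart from each other in how levels followed GC content. Over 7663 well expressed genes, each library's departure from the mean of the other libraries of its group was ranked against transcript GC content. Spearman's rho was 0.807 in lentivirus-circCSPP1 replicate 1, -0.753 in replicate 2 and -0.555 in replicate 3. In the lentivirus-NC libraries it was -0.080 to 0.114. Departures within a group depend on each other, so these values do not show how each library stood against lentivirus-NC. The values of network genes are therefore also given after each library was corrected for GC content and transcript length.

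Sequences of the network genes are shown for the features that link them to the network's own binding site and to miR-520h. The E-box, with the letters CACGTG, is the site that MYC-MAX and MXD-MAX pairs bind, and it reads the same on both strands. RefSeq promoters, taken from 250 bases before to 50 bases after the start on GRCh38.p14, were given for 9 of the 10 genes (12 promoters), and not for MYC. An E-box was found in promoters of MXD4, MNT and MLX, and in 7.26% of all 35116 promoters. The windows below lie at chr4:2262330-2262359 on the minus strand for MXD4, chr17:2401236-2401265 on the minus strand for MNT and chr17:42567038-42567067 on the plus strand for MLX, with the E-box in capitals.
MXD4: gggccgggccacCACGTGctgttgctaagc
MNT: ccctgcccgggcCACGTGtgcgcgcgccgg
MLX: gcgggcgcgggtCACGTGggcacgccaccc
These matches lie 238, 193 and 50 bases before the start, respectively, and describe letters only.

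The mature miR-520h (RefSeq, chr19:53742566-53742587, plus strand of GRCh38.p14) is shown because circCSPP1 was described as binding it, with its seed, bases 2 to 8, in capitals.
miR-520h: aCAAAGUGcuucccuuuagagu
A 7-base match to this seed was CACTTTG, or ACTTTGA where an A follows bases 2 to 7. In the 3′ UTRs of GENCODE release 29, such a match was present in 4 of the 10 genes, MYCN, MAX, MXD1 and MXI1, and in 33.1% of 12233 tested genes with a 3′ UTR. The 476-nt 3′ UTR of MYC held none. MXD1 has a long 3′ UTR of 4661 nt, against a median of 1341 nt. The matches of MXD1 (chr2:69940314-69940341 and chr2:69941060-69941086, plus strand), the first of MXI1 (chr10:110286334-110286361, plus strand) and that of MAX (chr14:65076015-65076041, minus strand) are shown with the matching bases in capitals.
MXD1 first match: gatatgtctgCACTTTGAggtccctttt
MXD1 second match: agcctttaagACTTTGAcaattgtacg
MXI1: ttctagcctgCACTTTGAtgtcatgtgt
MAX: gaactgctctACTTTGAgaagatgacc
The first MXD1 match and the MXI1 match pair with bases 2 to 8 and are followed by an A. Binding of miR-520h was not measured in these libraries.

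MYC, the main activator of the family, was even across lentivirus-NC and very uneven across lentivirus-circCSPP1. The gene (ENSG00000136997) lies on chromosome 8 of GRCh38 from 127735434 to 127741434, plus strand. Its level was 33.62, 32.05 and 26.93 FPKM in lentivirus-NC replicates 1, 2 and 3. In lentivirus-circCSPP1 replicates 1, 2 and 3 it was 72.38, 14.97 and 28.04 FPKM. Replicate 1 was above every lentivirus-NC library, replicate 2 was below every one, and replicate 3 lay among them. The highest lentivirus-circCSPP1 value was 4.84 times the lowest, against 1.25 times in lentivirus-NC, and the coefficient of variation was 78.2% against 11.3%. The group means, 30.9 ± 3.50 FPKM and 38.5 ± 30.1 FPKM (SD, n = 3 each), gave a mean log2(FPKM + 1) difference of 0.03 with a standard error of 0.48. A level that holds in all cells and one that holds in some of them cannot be told apart in bulk RNA.

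The sign of the mean difference in MYC depended on which libraries were averaged. With lentivirus-circCSPP1 replicate 1 left out the log2 difference was -0.56, and with lentivirus-circCSPP1 replicate 2 left out it was 0.54. Even the lowest MYC value stood for about 1233 fragments and the highest for about 5549, computed from depth and transcript length, so counting error was small against the spread.

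Few genes were as uneven as MYC. The SD of log2(FPKM + 1) over the 3 lentivirus-circCSPP1 libraries was 1.1 for MYC and had a median of 0.19 over the 12322 tested genes, those averaging 1 FPKM or more. Only 28 other tested genes had an SD as large, so that MYC was among 29, or 0.235%. In 4 of these 29, MYC included, the SD over the lentivirus-NC libraries was no larger than that of MYC. Among the 7665 tested genes averaging 10 FPKM or more, 9 had such an SD, MYC included. The spread was part of how the gene was chosen and is given as a description.

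MYC kept most of its spread when GC content was taken into account. As deposited, its departures from the lentivirus-NC mean were 1.21, -0.99 and -0.13 on the log2 scale in lentivirus-circCSPP1 replicates 1, 2 and 3. After correction for GC content and length they were 1.16, -0.94 and -0.10. The difference between replicates 1 and 2 went from 2.20 to 2.09, and the SD stayed at 1.1, while the median SD over all genes went from 0.19 to 0.11. The order of the 3 libraries, replicate 1 above 3 above 2, was shared with 26.5% of tested genes, and the reverse order was seen in 35.2%. In the network, MXD3, MXD4 and MNT had the order of MYC, while MXD1, MXI1 and MLX had the reverse order.

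**Figure D1:**
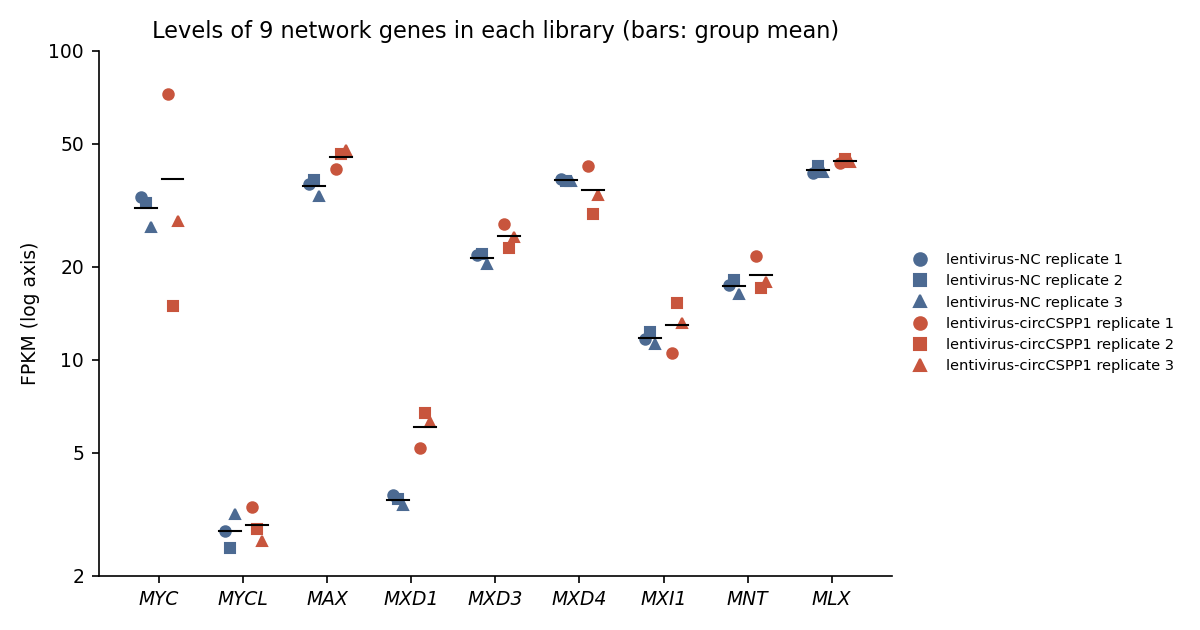
Level of 9 network genes in FPKM on a log axis, with 1 point per library (blue for lentivirus-NC, red for lentivirus-circCSPP1, the symbol giving the replicate) and bars at the group means. The 3 red points of MYC run from 14.97 to 72.38 FPKM around blue points at 26.93 to 33.62, and the red points of MXD1 all lie above the blue ones. MYCN, listed at or near 0, is left out.

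The other MYC family genes were low. MYCL (ENSG00000116990, chromosome 1, 39895426 to 39902256), first known from small cell lung cancer, was at 2.79, 2.45 and 3.16 FPKM in lentivirus-NC and at 3.33, 2.83 and 2.59 FPKM in lentivirus-circCSPP1. The groups overlapped, with a log2 difference of 0.04 and a standard error of 0.13. MYCN (ENSG00000134323, chromosome 2, 15940564 to 15947007), the family member known from neuroblastoma and neuroendocrine prostate cancer, was listed at 0 in 5 libraries and at 0.11 FPKM in lentivirus-circCSPP1 replicate 2, and was not tested. MYC was thus the main family member in each of the 6 libraries.

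MAX (ENSG00000125952, chromosome 14, 65006174 to 65102695), the shared partner, was steadier than MYC. It was at 36.95, 38.25 and 33.98 FPKM in lentivirus-NC and at 41.46, 46.42 and 47.64 FPKM in lentivirus-circCSPP1. The groups did not overlap, lentivirus-circCSPP1 being higher, with a log2 difference of 0.30 and a standard error of 0.095. The difference lay between 0.26 and 0.36 under the alternatives that could move it. Within lentivirus-circCSPP1, MAX was lowest in replicate 1, where MYC was highest.

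MXD1 (ENSG00000059728, chromosome 2, 69897688 to 69942945), the MAX partner known to be induced in differentiating cells, was the tested network gene with the largest mean difference on the log2 scale. Its level was 3.65, 3.55 and 3.38 FPKM in lentivirus-NC and 5.16, 6.70 and 6.30 FPKM in lentivirus-circCSPP1. The groups did not overlap, and the lentivirus-circCSPP1 mean of 6.05 ± 0.799 FPKM (SD, n = 3) was 1.72 times the lentivirus-NC mean of 3.53 ± 0.137 FPKM (SD, n = 3). The log2 difference was 0.63 with a standard error of 0.12, and between 0.57 and 0.77 under the alternatives that kept the gene and could move the value. After the correction for GC content and length, the 3 lentivirus-circCSPP1 values of MXD1 came together, with an SD of 0.016 in place of 0.17, and the difference was 0.69.

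The other MAX-binding repressors differed less. MXD3 (ENSG00000213347, chromosome 5, 177301461 to 177312757), which is known to be expressed in dividing cells, was at 21.77, 21.98 and 20.38 FPKM in lentivirus-NC and at 27.52, 23.06 and 24.99 FPKM in lentivirus-circCSPP1. These groups did not overlap, with a log2 difference of 0.22 and a standard error of 0.10. MNT (ENSG00000070444, chromosome 17, 2384060 to 2401118), the broadly expressed antagonist of MYC, was at 17.49, 18.06 and 16.30 FPKM and at 21.67, 17.08 and 17.85 FPKM, with overlapping groups.

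MXD4 (ENSG00000123933, chromosome 4, 2247432 to 2262294) was the most abundant of these repressors, and its lentivirus-NC libraries were close together at 38.51, 37.85 and 37.76 FPKM. Its lentivirus-circCSPP1 libraries, at 42.24, 29.67 and 34.21 FPKM, lay on both sides of them. MXI1 (ENSG00000119950, chromosome 10, 110207605 to 110287365) was at 11.71, 12.31 and 11.23 FPKM in lentivirus-NC and at 10.55, 15.26 and 13.11 FPKM in lentivirus-circCSPP1. Thus MXD4 was highest in lentivirus-circCSPP1 replicate 1 and MXI1 was lowest there. Their transcripts differ in GC content, 64.0% for MXD4 and 43.7% for MXI1. After the correction the SD over the lentivirus-circCSPP1 libraries went from 0.25 to 0.064 for MXD4, from 0.25 to 0.087 for MXI1 and from 0.17 to 0.0058 for MNT.

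MLX (ENSG00000108788, chromosome 17, 42567068 to 42573239) had close values within both groups. It was at 40.31, 42.39 and 40.55 FPKM in lentivirus-NC and at 43.46, 44.60 and 43.58 FPKM in lentivirus-circCSPP1. The groups did not overlap, but the log2 difference was 0.09 with a standard error of 0.078. As deposited, MLX was the one tested network gene whose SD on the log2 scale was smaller in lentivirus-circCSPP1, 0.020 against 0.039. A larger SD in lentivirus-circCSPP1 was seen in the other 8 of 9 tested network genes and in 78.1% of all tested genes. After the correction for GC content and length it was seen in 4 of 9, MYC, MAX, MXD4 and MXI1, and in 63.7% of all tested genes with a transcript.

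**Figure D2:**
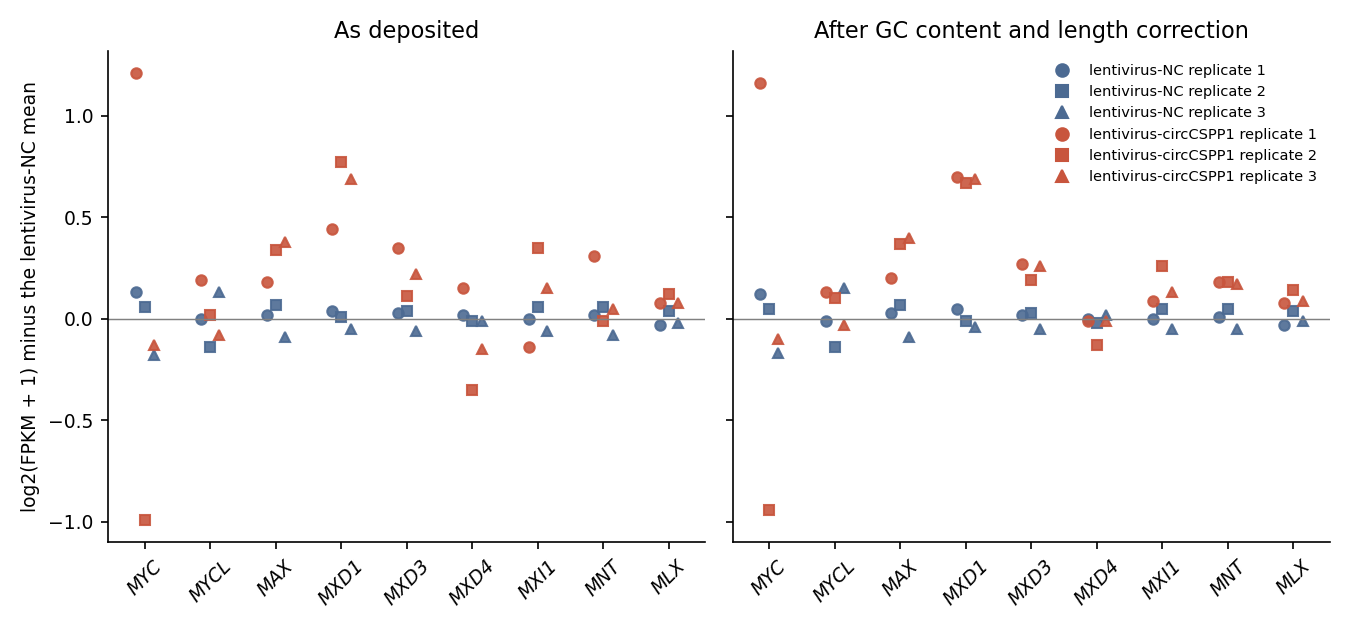
Departure of each library from the lentivirus-NC mean, in log2(FPKM + 1), for 9 network genes as deposited and after correction for GC content and transcript length (symbols and colours by library). For MYC the points of lentivirus-circCSPP1 replicates 1 and 2 stay at 1.16 and -0.94 after correction, while those of MXD1, MXD4 and MNT draw together.

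Over the network, 4 of the 9 tested genes, MAX, MXD1, MXD3 and MLX, had groups that did not overlap, all 4 with lentivirus-circCSPP1 higher. Among all tested genes 36.4% had groups that did not overlap, and 16.0% had them with lentivirus-circCSPP1 higher. In the fit over all genes (limma, Benjamini-Hochberg adjusted p under 0.05) 11.4% were called, 4.69% higher and 6.66% lower, and of the network genes 1 of 9, MXD1, was called. Since the genes were chosen with this contrast known, nothing is read from these counts.

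The order of levels within the network was well separated in lentivirus-NC. FPKM is scaled to transcript length, so levels are set side by side between genes. It takes no account of GC content, and the authors' annotation is not known, so the order is approximate. The mean was highest for MLX, at 41.1 FPKM, followed by MXD4 at 38.0, MAX at 36.4, MYC at 30.9, MXD3 at 21.4, MNT at 17.3, MXI1 at 11.8, MXD1 at 3.53, MYCL at 2.80 and MYCN at 0 FPKM. Of these neighbours, MXD4 and MAX were the one pair whose ranges overlapped. In lentivirus-circCSPP1 the means of MAX (45.2), MLX (43.9), MYC (38.5) and MXD4 (35.4 FPKM) had ranges that overlapped from each to the next, and below them the order was as in lentivirus-NC.

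The balance between MYC and its competitors for MAX followed the spread of MYC. MYC RNA was 0.910, 0.838 and 0.793 times MAX RNA in lentivirus-NC, and 1.75, 0.322 and 0.589 times in lentivirus-circCSPP1 replicates 1, 2 and 3. Of the summed FPKM of all partners of MAX in the set, MYC made up 26.0%, 25.0% and 22.6% in lentivirus-NC and 39.6%, 13.6% and 22.1% in lentivirus-circCSPP1. Thus MYC RNA exceeded MAX RNA in 1 library, lentivirus-circCSPP1 replicate 1. The summed repressors MXD1, MXD3, MXD4, MXI1 and MNT were steadier, at 93.1, 93.8 and 89.0 FPKM against 107, 91.8 and 96.5 FPKM. MYC over these summed repressors was 0.302 to 0.361 in lentivirus-NC and 0.676, 0.163 and 0.291 in lentivirus-circCSPP1, on both sides of that range. These are ratios of RNA, and protein was not measured.

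**Figure D3:**
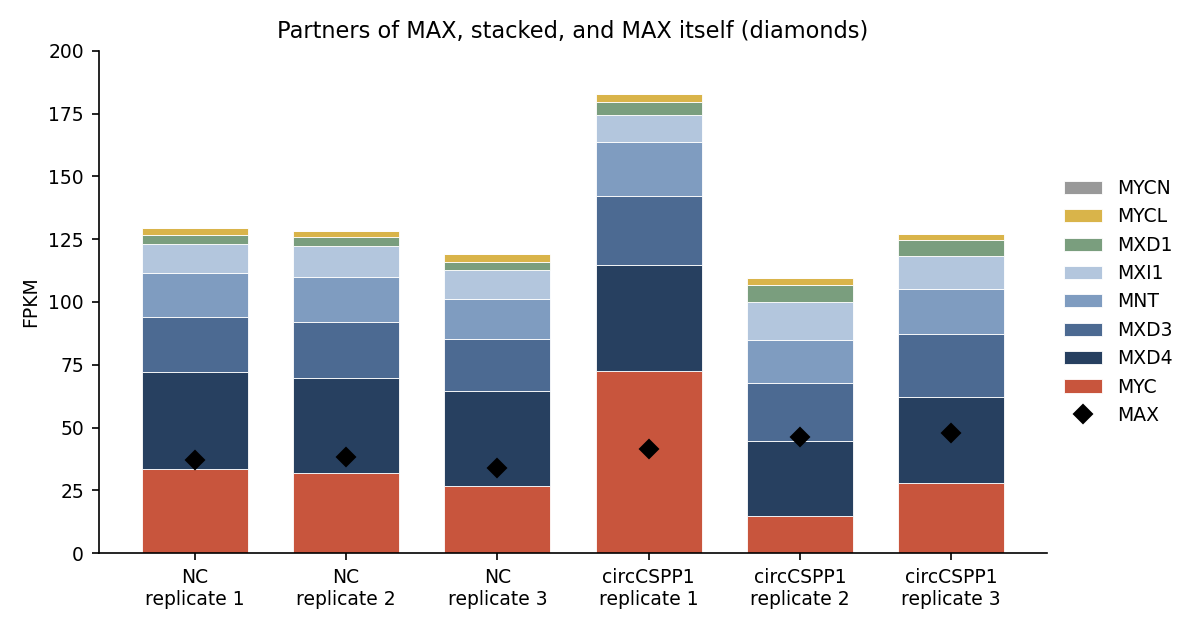
FPKM of the partners of MAX stacked for each library, with MAX as a diamond. MYC, in red at the base, takes 39.6% of the stack in lentivirus-circCSPP1 replicate 1 and 13.6% in replicate 2, while the repressor segments change less in height.

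The genes whose pattern was most like that of MYC over the 6 libraries, by Pearson's r of log2(FPKM + 1), were MZT2A (0.9962), NDUFA13 (0.9962) and QTRT1 (0.9960). MZT2A belongs to the machinery of microtubule nucleation, NDUFA13 is a subunit of mitochondrial complex I, and QTRT1 modifies transfer RNA. Within lentivirus-circCSPP1 they had MYC's order of libraries but not its size, and their order over all 6 libraries was not the same as that of MYC in each case. In lentivirus-circCSPP1 replicates 1, 2 and 3, QTRT1 was at 121.47, 79.32 and 92.16 FPKM, an SD of 0.31 on the log2 scale against 1.1 for MYC. Their transcripts had a GC content of 61.6% to 67.8%. In all, 106 of 12313 genes had an r above 0.95 and 395 an r below -0.95, and the points share the libraries and their GC content pattern.

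Cofactors and further bHLH partners of the network passed the test at a share near that of all genes. Of 24 such genes 23 were tested, and 3 passed an adjusted p of 0.05 (limma, Benjamini-Hochberg over all tested genes), 1 higher and 2 lower, or 13.0% against 11.4% of all genes. The median log2 difference was -0.04, and -0.03 over all genes. MLXIPL, the glucose-responsive partner of MLX also called ChREBP, fell from 4.99, 5.82 and 4.65 FPKM to 3.33, 2.46 and 2.09 FPKM (log2 difference -0.77, standard error 0.15, adjusted p = 0.022). SAP30, a subunit of the SIN3 repressor complex that MXD proteins bring to DNA, fell from 5.60 ± 0.220 to 3.80 ± 0.351 FPKM (SD, n = 3 each), with an adjusted p of 0.036 in limma. WDR5, a chromatin protein that MYC binds, rose from 78.4 ± 1.11 to 99.1 ± 4.47 FPKM (SD, n = 3 each), with an adjusted p of 0.031 in limma. Of the 6 fits with a library left out, MLXIPL was lost in 4 and SAP30 and WDR5 in 5, with adjusted p up to 0.099, 0.16 and 0.15 in limma. MLXIP, the other partner of MLX, had means of 36.7 and 41.2 FPKM with overlapping groups, and TXNIP, a target of MLX complexes, was at 1.69 to 5.21 FPKM in lentivirus-NC and 2.62 to 3.45 FPKM in lentivirus-circCSPP1.

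Among genes known to act on MYC RNA or protein, 31 of 32 listed genes were in the table and tested. Of these, 3 passed the test in limma, 2 higher and 1 lower, or 9.68% against 11.4% of all tested genes, and the median log2 difference was 0.00 against -0.03. USP36, a nucleolar deubiquitinase that stabilises MYC protein, rose from 34.76, 31.90 and 32.31 FPKM to 51.39, 53.27 and 54.03 FPKM (log2 difference 0.67, standard error 0.082, adjusted p = 0.0051). CNBP, a nucleic acid binding protein that acts on the MYC promoter, rose from 112 ± 13.2 to 164 ± 11.2 FPKM (SD, n = 3 each), with an adjusted p of 0.018 in limma. SKP2, a ubiquitin ligase subunit that targets MYC, fell from 19.4 ± 1.42 to 13.4 ± 0.720 FPKM (SD, n = 3 each), with an adjusted p of 0.023 in limma. The lentivirus-circCSPP1 libraries of USP36 lay close together, unlike those of MYC. FBXW7, the ligase subunit best known for MYC turnover, was at 2.12 to 2.28 FPKM in lentivirus-NC and 2.75 to 4.33 FPKM in lentivirus-circCSPP1. It did not pass as deposited (adjusted p = 0.14 in limma) but passed after the correction for GC content and length (adjusted p = 0.034 in limma). USP36 stayed past the threshold whichever library was left out, while CNBP was lost in 3 and SKP2 in 4 of the 6 fits, with adjusted p up to 0.091 and 0.12.

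Genes known to be activated by MYC included some with large rises. Of 48 listed genes 47 were tested, and 11 passed in limma, 8 higher and 3 lower, or 23.4% against 11.4% of all tested genes. The median log2 difference was 0.12 against -0.03 over all genes. In the list 36 genes were higher and 11 lower, against 5674 higher and 6648 lower among all tested genes. The lists were chosen with earlier results of these data known. ODC1, the rate-limiting enzyme of polyamine synthesis, rose from 120.93, 110.28 and 136.39 FPKM to 226.72, 273.67 and 251.39 FPKM (log2 difference 1.03, standard error 0.11, adjusted p = 0.0032). SLC1A5, a glutamine transporter, rose from 264.89, 234.28 and 223.42 FPKM to 441.85, 362.77 and 390.19 FPKM (log2 difference 0.72, standard error 0.10, adjusted p = 0.0071). Both were past the threshold in all fits with 1 library left out. Within lentivirus-circCSPP1, ODC1 was lowest in replicate 1, where MYC was highest, while SLC1A5 was highest there and had the order of MYC.

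The list holds many genes of ribosome production, of which some passed and others, such as NCL, NPM1 and FBL, did not. After the correction for GC content and length FBL passed (adjusted p = 0.048 in limma), while NCL and NPM1 still did not. PES1, part of the complex that matures the large subunit's RNA, rose from 39.6 ± 3.00 to 58.9 ± 3.31 FPKM (SD, n = 3 each, adjusted p = 0.012 in limma). RRP12, which helps export and mature ribosomal subunits, rose from 35.3 ± 1.97 to 51.1 ± 5.91 FPKM (SD, n = 3 each, adjusted p = 0.024 in limma). NOP56, DKC1, POLR1B and TFAP4 were the other genes called higher. LDHA, the lactate dehydrogenase subunit of glycolysis, fell from 426 ± 16.3 to 282 ± 40.5 FPKM (SD, n = 3 each, adjusted p = 0.017 in limma), and TYMS and HSPE1 fell as well. Of the 6 fits with a library left out, PES1 was lost in 2, LDHA in 3, RRP12, TYMS and HSPE1 in 4, and NOP56, DKC1, POLR1B and TFAP4 in 5, with adjusted p up to 0.18 in limma.

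The order of libraries in the MYC-activated genes was set beside that of MYC, as a description of the list. Replicate 1 above 3 above 2 of lentivirus-circCSPP1 was the order in 8 of the 47 tested genes, or 17.0%, against 26.5% of all tested genes. The reverse order was seen in 20, or 42.6%, against 35.2%. Their median departure from the lentivirus-NC mean was 0.109, 0.227 and 0.117 on the log2 scale in replicates 1, 2 and 3, and 0.138, 0.203 and 0.125 after correction for GC content and length. The median was highest in replicate 2, where MYC was lowest. Over all tested genes it was also highest in replicate 2 as deposited (-0.082, 0.022 and -0.006) and nearly even after correction (0.012, 0.011 and 0.014), and the MYC-repressed list described next was highest there too (0.138, and 0.092 after correction).

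Of 28 genes known to be repressed by MYC, 25 were tested and 6 passed in limma, 4 higher and 2 lower, or 24.0% against 11.4% of all genes, with a median log2 difference of -0.04. GADD45B, a stress-induced gene, rose from 84.72, 96.55 and 77.18 FPKM to 177.80, 165.70 and 154.28 FPKM (log2 difference 0.94, standard error 0.10, adjusted p = 0.0037). GADD45A of the same family rose from 33.4 ± 4.18 to 52.3 ± 7.50 FPKM (SD, n = 3 each, adjusted p = 0.028 in limma). KLF2, a transcription factor linked to quiescence, rose from 3.41 ± 0.944 to 8.54 ± 1.98 FPKM (SD, n = 3 each, adjusted p = 0.017 in limma). KLF4 was the other gene called higher. SFRP1, a secreted antagonist of WNT signalling, fell from 8.98, 9.91 and 9.26 FPKM to 4.82, 5.03 and 5.02 FPKM (log2 difference -0.80, standard error 0.10, adjusted p = 0.0053). ITGB4, an integrin subunit of hemidesmosomes, fell from 44.8 ± 3.24 to 23.6 ± 7.33 FPKM (SD, n = 3 each, adjusted p = 0.024 in limma). GADD45B and SFRP1 were past the threshold in all fits with 1 library left out, while KLF2 was lost in 3 of the 6 and GADD45A, KLF4 and ITGB4 in 4, with adjusted p up to 0.11 in limma. CDKN1A, the cell cycle inhibitor best known as repressed by MYC, was at 37.34, 34.74 and 15.55 FPKM in lentivirus-NC and at 41.01, 66.00 and 72.17 FPKM in lentivirus-circCSPP1, and did not pass (adjusted p = 0.092 in limma). Epithelial markers were lower in the lentivirus-circCSPP1 libraries, as given above, and their part in the differences of the 4 lists was not tested.

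**Figure D4:**
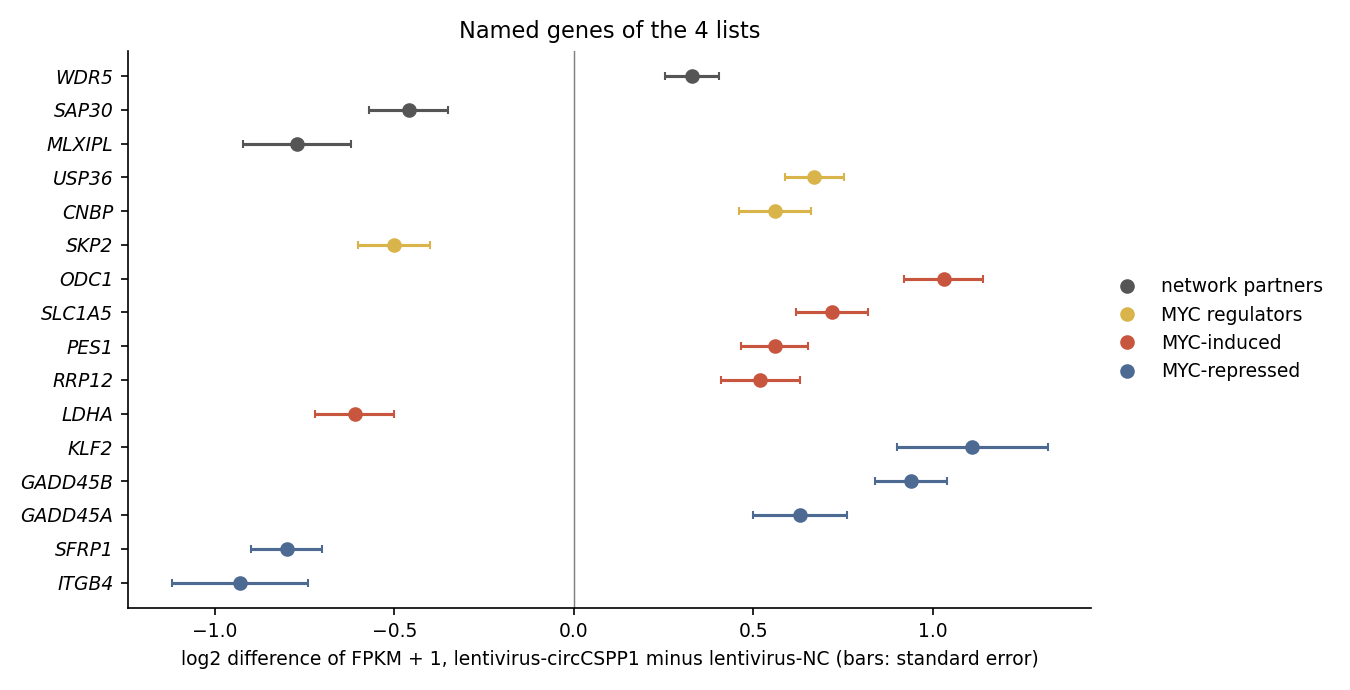
log2 difference of FPKM + 1 between lentivirus-circCSPP1 and lentivirus-NC, with standard error bars, for the named genes of the 4 lists, coloured by list. MYC-induced and MYC-repressed genes lie on both sides of 0, from ITGB4 at -0.93 to KLF2 at 1.11.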

How the data were processed

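RNA-seq of 6 DU145 libraries was used, 3 per group, grouped by their labels. Per the submitters' processing notes the build was hg38. The aligner, quantifier and annotation are not given in the sources used here, nor is strandedness, so antisense RNA cannot be told apart. The authors deposited FPKM values for each gene, rounded to 2 decimals, which are not counts; 0 columns of samples were left unused. FPKM is relative, so a gene's value also moves with the rest of the library. Depth was computed from whole-fragment steps in genes with transcripts under 800 nt (tolerance 0.15 of a step; 92.2% to 98.6% of values fell within it, 30% by chance).

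Values were taken to log2(FPKM + 1), which understates differences of low genes. The 12322 genes averaging 1 FPKM or more over the 6 libraries were tested, and the other 7405 were not. limma 3.58.1 in R 4.3.3 was fitted over all of them (eBayes with trend, two-sided, no covariate), with Benjamini-Hochberg adjustment and a threshold of 0.05. The p-values measure only the spread between these libraries, and an exact permutation test of 3 against 3 cannot go below 0.10. On simulated data, 98.0% of 200 genes changed by a log2 difference of 2 were recovered and 0.0825% of 12122 unchanged genes were called. The simulated noise was independent between genes and equal in spread between groups, unlike in these libraries. These rates therefore need not hold for the deposited data or for smaller differences. Transcript lengths, GC content and 3′ UTRs came from GENCODE release 29, which may not be the authors' annotation (19674 of 19727 genes matched), and promoters and the miRNA from RefSeq on GRCh38.p14.

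The network genes and lists were chosen with earlier results of these data known, the lists from general knowledge. Named were all 10 network genes, from each list at most 5 genes with the largest absolute difference among those past the threshold, and the 3 genes most correlated with MYC. CSPP1, FBXW7, CDKN1A, MLXIP, TXNIP and the other called list genes were named outside this rule after their values were seen. Alternatives were other pseudocounts (0.1, 0.01), filters, scalings and variance models, a correction for GC content and length by loess, a replicate block and leaving out each library.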

Additional observations from a re-analysis of the deposited data

How the results depend on the processing

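The design text speaks of pairs, but deviations of same-numbered libraries correlated at 0.07, 0.01 and 0.06, so the numbers were not taken to pair them. With a replicate block 923 genes were called in place of 1399, with 1 in place of 3 network partners and 7 in place of 11 MYC-induced genes. Correction for GC content and length gave 3520 calls (51.5% higher, against 41.3%), 6 network partners, 9 in place of 3 MYC regulators and 18 MYC-induced genes. Without moderation of the variance there were 834 calls, 5 MYC-induced and 3 in place of 6 MYC-repressed genes, and with a mean of at least 5 FPKM 1 network partner. Leaving out 1 library gave 300 (without lentivirus-NC replicate 1) to 3512 calls (without lentivirus-circCSPP1 replicate 1), with 0 to 9 network partners, 1 to 9 MYC regulators, 2 to 17 MYC-induced and 2 to 9 MYC-repressed genes, and each highest count came without lentivirus-circCSPP1 replicate 1. Calls of ODC1, SLC1A5, USP36, GADD45B and SFRP1 held under every alternative, and none of the 16 list genes named with values by the rule changed direction. The network genes' non-overlap count was 3 to 6. The share of all genes under the same alternatives is not given here, so nothing is read from this range. The cause of these shifts was not tested.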
